A study of Mus musculus with 24 samples.

Results

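The genes that remodel the extracellular matrix were taken from the deposited gene table by name. The set holds every protein-coding gene called Adamts, Adamtsl, Mmp or Timp with a number, which gave 50 of the 55536 genes. There are 19 Adamts genes, 5 Adamtsl genes, 22 Mmp genes and 4 Timp genes. The groups, all from mouse embryos at E11.5, that is, midgestation, were Cenpj mutants (ShhCre Cenpj-/lox), Ift88 mutants (ShhCre Ift88-/lox) and controls (ShhCre Cenpj+/lox), with 4 libraries for each genotype in lung and 4 in small intestine. All groups carry ShhCre, whose Cre recombinase is made in the epithelium of both organs, and the mutants carry a minus allele beside the floxed one. The controls keep a single working Cenpj copy in the epithelium, carry no Ift88 allele named in the labels, and serve both mutants. Cenpj is needed to build centrioles and Ift88 to build cilia. Whole organs were sequenced, so the mesenchyme, which Cre does not target, is in every library. By the labels the mesenchyme differs in genotype too, since the mutants carry the minus allele there and the controls do not. In such bulk samples fewer cells of a type and less RNA per cell cannot be told apart. Nothing in the labels says that replicates came from separate embryos, and the p-values speak for the scatter of these libraries alone.

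Mmp genes encode metalloproteinases that cleave collagens, basement membrane and cell surface proteins. Adamts genes encode secreted metalloproteinases with thrombospondin repeats: one branch cleaves proteoglycans such as versican, another trims procollagens, and others act at fibrillin microfibrils. Adamtsl proteins have the repeats without the protease domain, and the Timp proteins are tissue inhibitors that block the proteases. Branching lungs and elongating gut remodel their matrix throughout this period of development.

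The start regions of a few of these genes are shown because the set splits by them. The first 4 belong to the genes that later differed between Ift88 mutants and controls, and the fifth stands for the Mmp cluster on chromosome 9, which was almost silent in both organs. Each window runs from 250 bases before to 50 bases after a RefSeq start on build GRCm38.p6. Capitals mark a GC box (GGGCGG, either strand), an AP-1 site (TGANTCA, either strand) or a TATA box (TATAAA, either strand). The windows are chr8:113848790-113849089 on the minus strand for Adamts18, chr6:92943485-92943784 on the minus strand for Adamts9, chr4:155653241-155653540 on the minus strand for the second of 2 starts of Mmp23, chr10:86300162-86300461 on the plus strand for Timp3 and chr9:7272264-7272563 on the plus strand for Mmp13.
Adamts18: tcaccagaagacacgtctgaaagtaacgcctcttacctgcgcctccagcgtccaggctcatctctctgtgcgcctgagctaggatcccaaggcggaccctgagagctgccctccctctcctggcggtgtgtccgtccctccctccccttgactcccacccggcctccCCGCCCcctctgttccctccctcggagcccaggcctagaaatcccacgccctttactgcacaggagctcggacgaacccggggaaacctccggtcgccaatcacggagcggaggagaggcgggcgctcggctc
Adamts9: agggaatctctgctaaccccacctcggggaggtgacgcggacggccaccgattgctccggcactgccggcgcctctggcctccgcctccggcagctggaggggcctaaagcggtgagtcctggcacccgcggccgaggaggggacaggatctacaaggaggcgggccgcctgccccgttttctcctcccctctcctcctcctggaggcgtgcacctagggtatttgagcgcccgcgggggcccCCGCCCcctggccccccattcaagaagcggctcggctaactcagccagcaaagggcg
Mmp23: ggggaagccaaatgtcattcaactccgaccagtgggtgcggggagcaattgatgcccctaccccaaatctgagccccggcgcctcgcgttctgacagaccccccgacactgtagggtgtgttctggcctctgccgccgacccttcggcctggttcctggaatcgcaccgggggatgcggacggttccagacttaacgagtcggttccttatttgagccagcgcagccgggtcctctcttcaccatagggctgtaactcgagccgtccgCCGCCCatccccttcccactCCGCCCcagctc
Timp3: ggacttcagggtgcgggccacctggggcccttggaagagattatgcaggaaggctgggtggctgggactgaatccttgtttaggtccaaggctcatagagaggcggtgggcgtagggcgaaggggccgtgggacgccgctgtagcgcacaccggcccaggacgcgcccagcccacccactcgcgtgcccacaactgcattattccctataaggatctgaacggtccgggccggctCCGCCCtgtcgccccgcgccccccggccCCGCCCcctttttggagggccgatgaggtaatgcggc
Mmp13: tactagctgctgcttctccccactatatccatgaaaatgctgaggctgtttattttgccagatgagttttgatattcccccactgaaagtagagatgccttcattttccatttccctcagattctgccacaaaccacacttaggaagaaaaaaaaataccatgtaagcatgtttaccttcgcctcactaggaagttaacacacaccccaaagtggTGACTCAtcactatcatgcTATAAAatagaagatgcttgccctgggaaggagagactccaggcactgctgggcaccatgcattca

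The first 4 windows are GC-rich, at 66.0% for Adamts18, 70.0% for Adamts9, 63.3% for Mmp23 and 67.0% for Timp3, against a median of 52.7% over all 32851 promoters. They hold 22 (Adamts18), 25 (Adamts9), 23 (Mmp23) and 24 (Timp3) CpG dinucleotides, against a median of 7. The window of the other Mmp23 start, not shown, has 61.0% GC and 19 CpG but no GC box. The Mmp13 window has a single CpG, an AP-1 site and a TATA box. Of the 50 genes, 35 have a promoter entry, among them all 9 Mmp genes of chromosome 9. None of those 9 has a GC box, 7 have an AP-1 site and 8 have a TATA box. Of the other 26 genes, 22 have a GC box, none has an AP-1 site and 3 have a TATA box. For comparison, 35.7% of all promoters hold the GC box, 7.81% the AP-1 site and 13.6% the TATA box. A Gli site (GACCACCCA, either strand), the motif bound by the hedgehog factors, was in none of the 38 windows of the set and in 0.253% of all promoters. These matches describe letters in a window and show no binding.

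Levels followed the CpG count, without a test. The cut used here lies in a gap between 4 and 7 CpG in these same genes. Of the genes below it 9 are the neighbouring Mmp genes of chromosome 9, so they are not separate points. The 12 genes with 0 to 4 CpG in the window had 0 to 8.27 normalized counts per kb of exon over the 24 libraries. The 23 genes with 7 or more CpG had 12.1 to 4382.7 per kb, and the lowest of them was Mmp24, a membrane-type metalloproteinase. The cluster on chromosome 9 spans 0.43 Mb, from 7272514 to 7699585, and holds the collagenases Mmp13, Mmp8 and Mmp1b, the stromelysins Mmp3 and Mmp10, the matrilysin Mmp7, the macrophage elastase Mmp12, the enamel protease Mmp20, and Mmp27. Its highest mean was 20.1 normalized counts, that of Mmp8, and Mmp1b had no read in any library. Mmp3, Mmp7, Mmp10, Mmp20 and Mmp27 each had reads in 1 library only. Adamts13, which cleaves von Willebrand factor, Timp4 and Mmp21, which acts in left-right asymmetry, lie outside the cluster and had both few CpG and low levels.

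**Figure D1:**
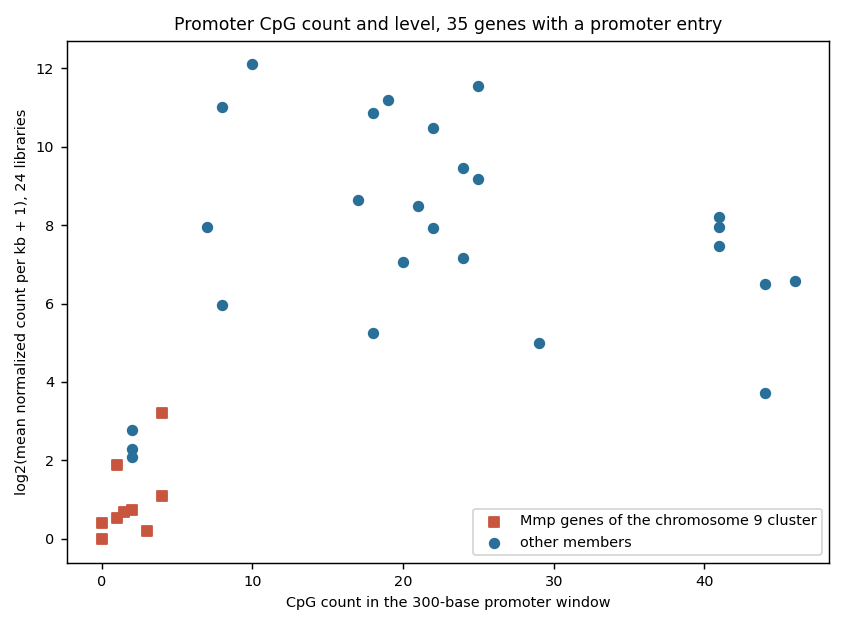
Level (log2 of the mean normalized count per kb of exon plus 1, over 24 libraries) against the CpG count of the promoter window, for the 35 genes with a promoter entry. Squares are the 9 Mmp genes of the chromosome 9 cluster and circles the other 26; the 12 genes with 0 to 4 CpG lie at the bottom left, at no more than 8.27 per kb.

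Libraries held 96.12 to 120.88 M reads, recovered from the steps between the normalized counts. Nkx2-1, which marks lung epithelium, was at 2977.2 to 15688.5 in the 12 lung libraries and at 0 in all intestine libraries except 1 control with 14.2, and Cdx2, which marks intestinal epithelium, was at 0 in all lung libraries except 1 control with 15.0 and at 534.4 to 3344.9 in the intestine libraries. Ift88 was at 1730.4 to 2441.8 in Ift88 mutant lungs, against 2351.6 to 3059.4 in control lungs, and at 1581.3 to 2154.6 in Ift88 mutant intestines, against 2357.4 to 2844.5 in control intestines. Cenpj was at 2133.2 to 2958.3 in Cenpj mutant lungs, against 2259.3 to 4163.5 in control lungs, and at 2083.5 to 3113.6 in Cenpj mutant intestines, against 2673.6 to 4537.0 in control intestines. Some libraries stand apart. All 8 Cenpj mutant libraries, control lung 3 and control intestine 2 had over 2000 ribosomal RNA reads per M reads, and the other 14 had fewer. Cenpj mutant intestine 1 held both the female-specific Xist (98518.2) and the Y-linked Ddx3y (1438.2). Control lung 1 and control intestine 1 had Ddx3y at 7740.3 and 8062.6 and Xist at 2796.0 and 93.7, as male tissue has, while in the other 21 libraries Xist was at 79692.5 or more and Ddx3y at 47.2 or less. Control intestine 4 lies near the Ift88 mutants in several genes named below. The results that turn most on single libraries are also given without them, and the part of sex in the comparisons with controls was not tested.

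Of the 50 genes, 36 had reads in all 24 libraries, 8 in 2 to 23, 5 in 1 and 1 in none. The mean normalized count was 1000 or more for 22 genes, 100 to 1000 for 13 and under 100 for 15. Per kb of exon the highest was the gelatinase Mmp2 at 7164.7, followed by Mmp14 at 4382.7, a membrane-bound protease that activates the Mmp2 proenzyme together with Timp2. Timp2 itself came next at 3000.6, then Mmp11 at 2354.3, a protease activated inside the cell by furin, Adamts10 at 2072.0, which acts at fibrillin microfibrils, Timp1 at 2068.9 and the versican-cleaving Adamts1 at 1859.9. Neither Mmp11 nor Mmp14 passed in any comparison. Group means of Mmp11 lay between 5990.0 and 7294.4 normalized counts, and those of Mmp14 between 24231.1 and 28801.7. The other gelatinase, Mmp9, had 26.4 per kb and was at 0 in 2 libraries.

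**Figure D2:**
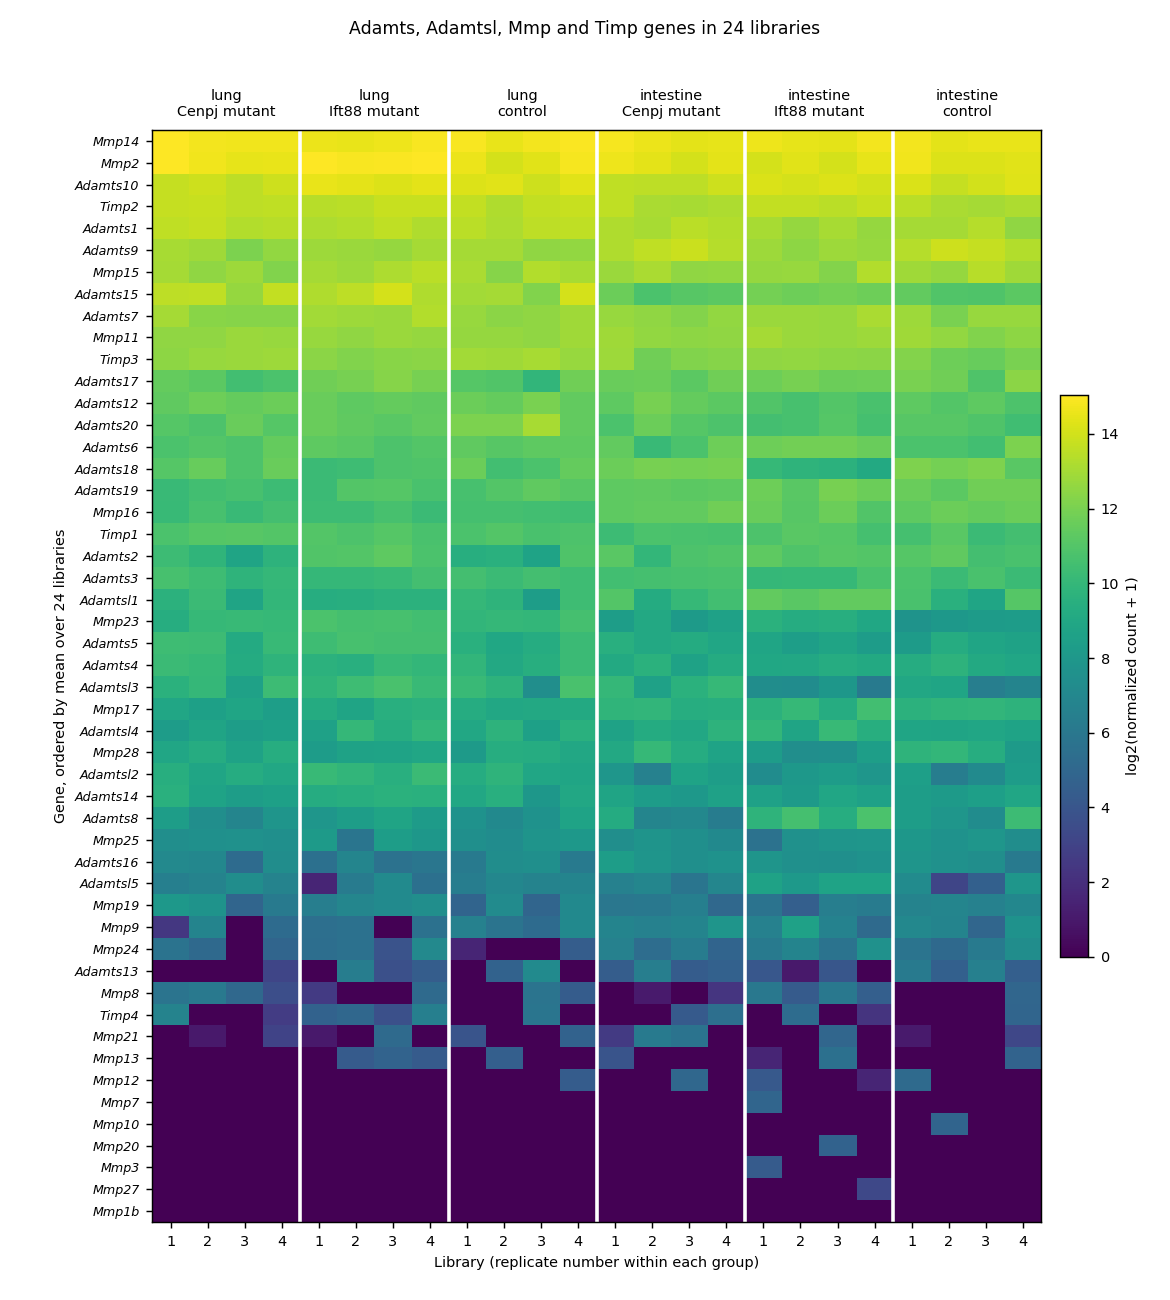
Each row is 1 of the 50 genes and each column 1 of the 24 libraries, with colour giving log2(normalized count + 1); colours compare libraries within a row, since counts are not divided by gene length here. Of the upper rows Mmp14 and Mmp11 are nearly even across groups, while Adamts15 is darker (lower) in intestine than in lung. Adamts18 is darker in the 4 Ift88 mutant intestines, at 566.8 to 1060.2. The lowest rows are the Mmp genes of chromosome 9 other than Mmp8.

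In Ift88 mutant intestine, 3 genes of the set differed from control intestine, 2 of them lower and 1 higher. The test was limma on log2(normalized count + 1) over the 12 intestine libraries, with p-values adjusted by Benjamini-Hochberg over all genes tested and 0.05 as the threshold. At that threshold 0.719% of the 31592 genes tested were called (0.399% higher and 0.32% lower), against 3 of the 48 members tested. The median log2 fold change was 0.14 over those members and 0.06 over all genes tested. By family, 2 of 19 Adamts genes, 0 of 5 Adamtsl genes, 1 of 20 Mmp genes and 0 of 4 Timp genes passed.

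Adamts18 (ENSMUSG00000053399, chromosome 8, 113697126 to 113848738, minus strand) fell most of the 3. It encodes a secreted protease that mice need for normal branching of the airways. It had 1060.2, 880.4, 812.0 and 566.8 normalized counts in Ift88 mutant intestines, against 4557.5, 3757.2, 4468.0 and 2367.7 in control intestines. Every mutant library lay below every control, and the lowest control was control intestine 4. The log2 fold change was -2.18 (SE 0.20, limma adjusted p = 7.68e-05). Leaving out any 1 of the 12 libraries kept the call, with log2 fold changes of -2.39 to -2.01. Cenpj mutant intestines had 3223.6 to 4004.6, within the range of the controls.

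Adamts9, a versican-cleaving protease whose relative in the worm Caenorhabditis elegans guides gonad migration, also fell (ENSMUSG00000030022, chromosome 6, 92772699 to 92943492, minus strand). It had 7168.9, 5681.2, 7171.3 and 6786.7 in Ift88 mutant intestines, against 10422.9, 15298.7, 13698.9 and 9920.8 in control intestines, and the groups did not overlap. The log2 fold change was -0.86 (SE 0.15, limma adjusted p = 0.0165). The call was lost without Ift88 mutant intestine 2 (adjusted p = 0.0769) or control intestine 3 (adjusted p = 0.0788).

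Mmp23, a metalloproteinase held in the membrane until furin-type cleavage, rose (ENSMUSG00000029061, chromosome 4, 155650655 to 155653384, minus strand). It had 787.8, 623.7, 697.1 and 495.1 in Ift88 mutant intestines, against 210.5, 253.1, 304.4 and 312.9 in control intestines. All mutant libraries were above all controls, with a log2 fold change of 1.26 (SE 0.27, limma adjusted p = 0.0384). The call held in 5 of the 12 fits that left out a library, with adjusted p from 0.0165 to 0.133, and was lost without Cenpj mutant intestine 4, Ift88 mutant intestine 1, 2 or 3, or control intestine 1, 2 or 3. It was also lost with no filter on low genes (adjusted p = 0.0589).

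Control intestine 4, which lies near the Ift88 mutants in several genes, was singled out after its values were seen. For such genes leaving it out widens the difference. Over the 12 fits that left out a library, 1 to 10 members were called. The 10, 7 higher and 3 lower, came without this control, in a fit that called 3.27% of all genes. They were Adamts18, Adamts9 and Mmp23 as above and 7 more, which are named here after their values were seen. Mmp28, a secreted metalloproteinase, had 311.3, 171.5, 181.2 and 347.2 in Ift88 mutant intestines, against 870.2, 1003.4, 661.6 and 295.8 in control intestines, where the low value is control intestine 4. Its log2 fold change was -1.41 with all libraries (limma adjusted p = 0.0864) and -1.79 without that control (limma adjusted p = 0.00674). Adamts8, a proteoglycan-cleaving protease, had 868.5, 1573.1, 657.6 and 1769.3 in Ift88 mutant intestines, against 325.2, 237.4, 156.0 and 1254.8 in control intestines. Its log2 fold change was 1.68 (limma adjusted p = 0.202), and 2.29 without that control (limma adjusted p = 0.0255). The others called without it, all higher, were Adamtsl5 (log2 fold change 3.56, against 2.84 and a limma adjusted p of 0.0941 with all libraries), Adamtsl1 (1.66, against 1.32 and 0.111), Adamts6 (1.06, against 0.71 and 0.299), Adamts15 (0.68, against 0.65 and 0.0711) and Mmp8 (5.22, against 3.98 and 0.157). Mmp8 was at 0 in the 3 remaining controls and at 63.6, 19.2, 62.8 and 22.3 in the Ift88 mutants, so its fitted value depends on the pseudocount and is no measure of size.

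Among the inhibitors none passed in Ift88 mutant intestine. Timp3, which binds to the matrix and blocks Mmp, Adam and Adamts proteases, had 5871.4, 6272.3, 5826.4 and 5450.2 in Ift88 mutant intestines, against 4900.5, 3433.6, 3013.3 and 4080.4 in control intestines. Those groups did not overlap, at a log2 fold change of 0.62 (limma adjusted p = 0.107). Timp2 had a log2 fold change of 0.43 (adjusted p = 0.111), Timp1 of 0.28 (adjusted p = 0.562), and Timp4 was near 0 in most libraries. Mmp2 and Mmp14 had -0.16 and 0.02, neither past the threshold.

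Of 24 matrix proteins that these enzymes cleave or that build the same fibres, 3 rose and none fell in Ift88 mutant intestine. They were thrombospondin Thbs2 (log2 fold change 1.98, SE 0.42, limma adjusted p = 0.0382), the proteoglycan decorin Dcn (0.80, SE 0.18, adjusted p = 0.0458) and the microfibril protein Mfap2 (0.51, SE 0.11, adjusted p = 0.0418). The median over the 24 was 0.48. Of 19 other metalloproteinases tested 1 fell, Adam12 (-0.68, SE 0.12, adjusted p = 0.022), and of 24 other regulators of matrix breakdown none passed.

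Markers of other cells moved with these results. The summed smooth muscle markers (Acta2, Myh11, Actg2, Tagln, Des and Cnn1) were at 99015.0 to 188340.1 in Ift88 mutant intestines, against 6298.9 to 17827.9 in control intestines 1 to 3 and 87843.8 in control intestine 4. Of the 6 markers 2 passed, Acta2 and Cnn1, both higher, and none was at 0 in every library of a group. Summed red blood cell markers were at 152971.4 to 218236.6 in Ift88 mutant intestines, against 195308.6 to 588054.6 in control intestines, and 2 of the 6 were lower. Of 5 cartilage markers Col9a1 was lower (log2 fold change -0.95, limma adjusted p = 0.0028), with sums of 6740.8 to 10528.9 in Ift88 mutant intestines, against 7749.3 to 20288.9 in control intestines. Of 5 pancreas markers Gcg was lower (-3.33, limma adjusted p = 0.0299), with sums of 1152.0 to 2106.2 in Ift88 mutant intestines, against 1170.3 to 14770.8 in control intestines. Etv5, 1 of 7 lung epithelium markers, was lower too (-1.16, limma adjusted p = 0.0341). The part of these cells in the results was not tested.

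**Figure D3:**
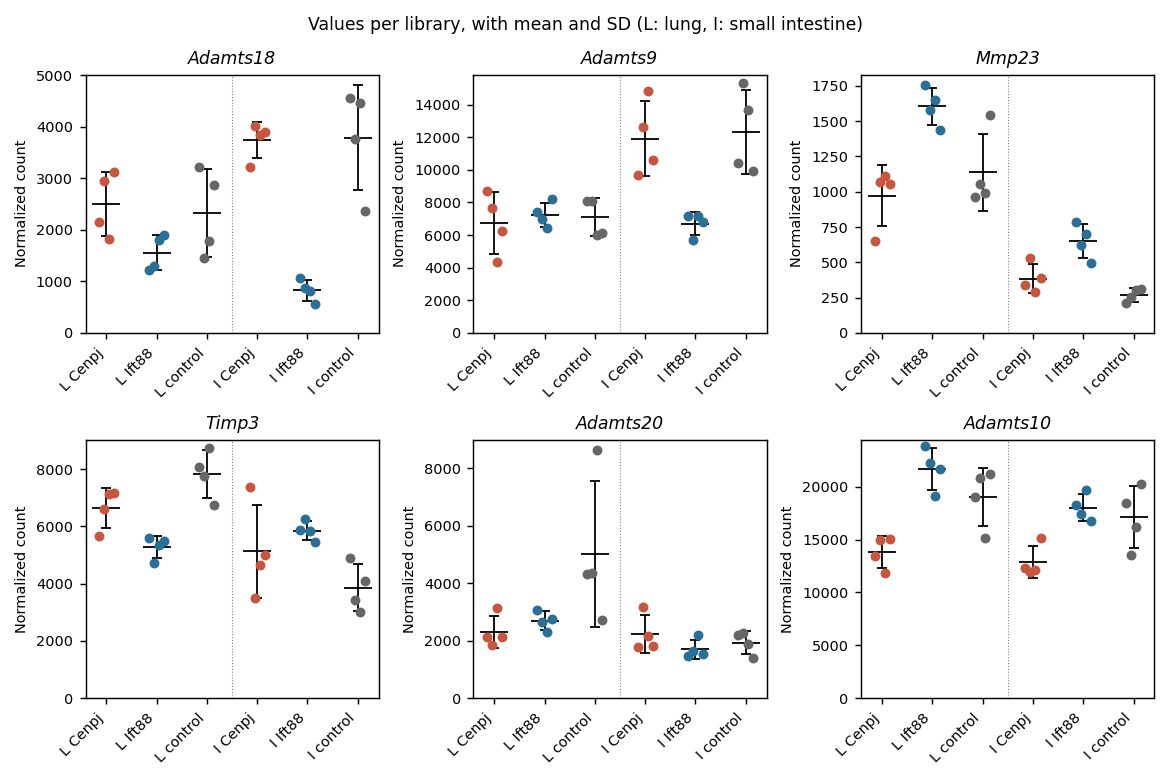
Normalized counts of 6 genes in each library (points), with the group mean and SD (bars), for lung (L) and small intestine (I). Adamts18 and Adamts9 are lowest in Ift88 mutant intestine among the intestine groups, Timp3 is lower in Ift88 mutant than control lung, and Adamts10 is lower in both Cenpj mutant groups than in Ift88 mutants.

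In Ift88 mutant lung 1 member of 44 tested was called, at a background of 1.07% of the 31361 genes tested (0.437% higher and 0.631% lower). Timp3 fell: it had 5579.8, 4707.6, 5348.6 and 5477.1 in Ift88 mutant lungs, against 8061.6, 7760.0, 8740.1 and 6743.4 in control lungs. The groups did not overlap, and the log2 fold change was -0.57 (SE 0.11, limma adjusted p = 0.0158). The call was lost without Ift88 mutant lung 1 (adjusted p = 0.0531), Ift88 mutant lung 2 (adjusted p = 0.0754) or control lung 3 (adjusted p = 0.071). It was also lost with the ribosomal RNA class of the library as a term (-0.56, adjusted p = 0.118). Timp3 (ENSMUSG00000020044, chromosome 10, 86300372 to 86349506, plus strand) lies within the span of the synapsin gene Syn3 on the opposite strand, and the strand setting of the counts is not given in the sources used here.

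The next members by p did not pass. Adamts17, which acts at microfibrils, had 3538.5, 4021.7, 5100.6 and 4011.6 in Ift88 mutant lungs, against 2117.0, 1990.3, 957.7 and 3456.9 in control lungs (log2 fold change 1.10, limma adjusted p = 0.0591). Adamts2, a procollagen N-propeptidase, had 1946.5, 2084.9, 2542.6 and 1781.4 in Ift88 mutant lungs, against 700.5, 756.1, 427.0 and 1897.9 in control lungs (log2 fold change 1.35, limma adjusted p = 0.0619). The high control in both genes is control lung 4. That library was singled out after its values were seen, and leaving it out widens both differences. The fit without it called 3.19% of all genes and 6 members, the highest count of the 12 fits that left out a library (0 to 6). Adamts2 (1.76), Adamts17 (1.38), Adamts5 (1.25) and Mmp2 (0.62) were higher there and Timp3 (-0.64) and Adamts20 (-1.02) lower. With all libraries Adamts5 had 1.00 (limma adjusted p = 0.0675), Mmp2 0.50 (limma adjusted p = 0.0921) and Adamts20 -0.77 (limma adjusted p = 0.137). Adamts5 is an aggrecan- and versican-cleaving protease, and Adamts20 is the closest relative of Adamts9. The median log2 fold change was 0.05 over the 44 members and 0.00 over all genes tested.

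Of the 24 matrix proteins 1 rose in Ift88 mutant lung, elastin Eln (log2 fold change 1.85, SE 0.42, limma adjusted p = 0.0369), and 1 fell, Ltbp1 (-0.63, SE 0.12, adjusted p = 0.0127), which anchors TGF-beta in the matrix. Adam22 fell among the other metalloproteinases (-0.95, SE 0.19, adjusted p = 0.0196). Smooth muscle markers summed to 47435.4 to 79463.0 in Ift88 mutant lungs, against 9999.3 to 31636.2 in control lungs, with Acta2 and Actg2 the 2 of 6 that passed. Red blood cell markers summed to 221322.1 to 357976.7 in Ift88 mutant lungs, against 470217.6 to 1494767.4 in control lungs, with 3 of 6 lower. Among single markers of other lists, Sftpc (log2 fold change 2.96), Actc1 (1.78), Wnt2 (0.82), C1qc (0.78) and Pecam1 (0.71) were higher, and Gcg (-2.18) and Col9a1 (-1.26) lower, with limma adjusted p of 0.00348 to 0.0462. Their part in the lung results was not tested either.

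Whether the Ift88 effect differed between organs was tested directly over all 24 libraries, as the effect in lung minus the effect in intestine. No member passed with limma, at a background of 0.0125% of 32098 genes (0.00312% higher and 0.00935% lower), while 16 of 47 members and 7.27% of all genes had an unadjusted p under 0.05. EdgeR called 0 members (0.00935% of all genes) and DESeq2 called 3 (0.626%). Timp3 came nearest, with a difference of -1.19 on the log2 scale (SE 0.22, limma adjusted p = 0.0535), from -0.57 in lung and 0.62 in intestine. It passed with DESeq2 (adjusted p = 0.00052), with the replicate block (adjusted p = 0.0372) and in 7 of 24 fits that left out a library (adjusted p 0.00934 to 0.154 over all 24). Adamts18 had 1.65 (SE 0.34, adjusted p = 0.0756, and 0.0112 without control intestine 4) and Adamts9 0.91 (SE 0.24, adjusted p = 0.222). Adamts18 in lung had 1227.6, 1300.0, 1809.3 and 1899.3 in Ift88 mutants, against 3221.1, 1448.2, 1776.1 and 2876.8 in controls, which overlap (log2 fold change -0.53, limma adjusted p = 0.353).

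The Cenpj comparisons use the same control libraries as those of Ift88. In Cenpj mutant lung no member of 44 passed with limma, at a background of 0.513% of 31361 genes (0.0797% higher and 0.434% lower), with 5 at a p under 0.05 before adjustment, as were 3606 of the 31361 genes. EdgeR called 1 (0.564% of all genes) and DESeq2 called 3 (2.53%). The median log2 fold change was -0.10 over the members and 0.00 over all genes tested. Adamts20 had 2131.1, 1850.8, 3128.6 and 2125.8 in Cenpj mutant lungs, against 4319.3, 4369.6, 8622.6 and 2718.3 in control lungs, so 1 control lay within the mutants' range. Its log2 fold change was -1.02 (SE 0.24, limma adjusted p = 0.063), and it passed in 2 of the 12 fits that left out a library, those without Cenpj mutant lung 3 (adjusted p = 0.0492) or control lung 4 (adjusted p = 0.00685). Over the 12 fits it ran from -1.27 to -0.71 (adjusted p 0.00685 to 0.157), and the smallest was that without control lung 3, the library with 8622.6 (-0.71, limma adjusted p = 0.101). With the ribosomal RNA class as a term, in a fit over 24 libraries, it passed (-1.60, limma adjusted p = 0.00659). That term rests on control lung 3 and control intestine 2, the only libraries whose class differs from the rest of their group. So this value leans on the same control lung 3. Adamts19 had 1160.2, 1450.4, 1616.1 and 1290.3 in Cenpj mutant lungs, against 1638.0, 2086.3, 2591.1 and 2269.2 in control lungs (log2 fold change -0.63, SE 0.18, limma adjusted p = 0.135). Those groups did not overlap.

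Adamts10, the most abundant Adamts gene per kb, was the other one near the threshold. It had 13412.1, 14937.5, 11818.0 and 15054.1 in Cenpj mutant lungs, against 19034.8, 20789.7, 15190.6 and 21215.2 in control lungs. The groups did not overlap, but the lowest control is control lung 3, the only control lung rich in ribosomal RNA. The log2 fold change was -0.46 (SE 0.12, limma adjusted p = 0.0836), -0.57 without that control (limma adjusted p = 0.0227) and -0.14 with the ribosomal RNA class as a term (limma adjusted p = 0.813). In the intestine it had 12322.4, 11955.2, 12142.6 and 15199.0 in Cenpj mutants, against 18466.6, 13556.2, 16164.0 and 20283.3 in controls, where 13556.2 is the control rich in ribosomal RNA.

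In Cenpj mutant intestine no gene of 31592 tested was called by limma, a background of 0%, and so none of the 48 members. Unadjusted p was under 0.05 for 4 of them and for 5.12% of all genes, and edgeR (0% of all genes) and DESeq2 (0.18%) called 0 members. The median log2 fold change was 0.00 over the members and 0.01 over all genes tested. The smallest p were those of Adamts10 (log2 fold change -0.40, limma adjusted p = 0.774), Adamtsl3 (1.82, adjusted p = 0.80) and the COMP-cleaving Adamts12 (0.38, adjusted p = 0.906). Adamtsl3 had 1021.7, 389.8, 784.9 and 1096.7 in Cenpj mutant intestines, against 525.1, 456.9, 84.1 and 107.7 in control intestines, with overlap. No matrix protein, other metalloproteinase or regulator passed in either Cenpj comparison with controls. Leaving out Cenpj mutant intestine 1, which holds both Xist and Ddx3y, also gave 0. The Cenpj effect did not pass as different between organs for any member (0 of 47, background 0%, 6 members and 4.76% of all genes with an unadjusted p under 0.05, 0 by edgeR and 0 by DESeq2). The smallest p were those of Adamts20, Timp3 and Adamtsl4, with differences of -1.21, -0.62 and -1.06 on the log2 scale (limma adjusted p = 0.932 for each).

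**Figure D4:**
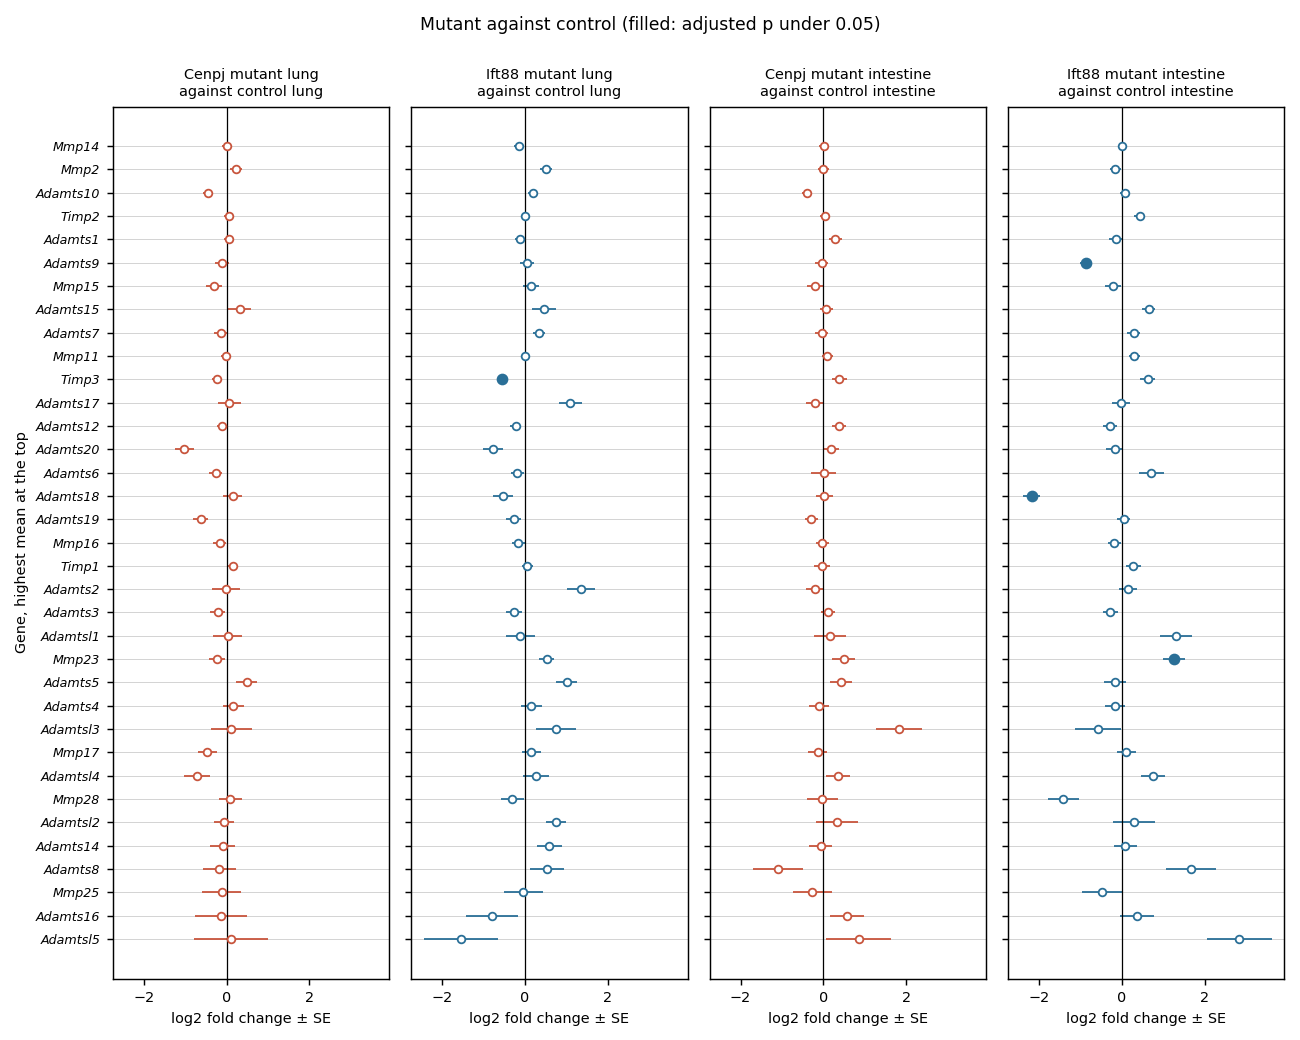
Log2 fold change with SE for the 35 genes with a mean of 100 or more normalized counts, in the 4 comparisons of a mutant with its control; filled points have an adjusted p under 0.05. The filled points are Timp3 in Ift88 mutant lung and Adamts9, Adamts18 and Mmp23 in Ift88 mutant intestine.

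The mutants were also compared with each other. This uses no control mean, but the control libraries enter the shared estimate of the spread. The Ift88 libraries are those of the comparisons above. In the intestine 6 of 48 members were called, 4 higher and 2 lower in Cenpj mutants, at a background of 2.19% of 31592 genes (0.984% higher and 1.21% lower). The median was -0.16 over the members and -0.03 over all genes tested. Higher were Adamts18 (log2 fold change 2.20, SE 0.20, limma adjusted p = 6.52e-05), Adamts9 (0.82), Adamtsl3 (2.39) and Adamts12 (0.67), and lower were Adamts8 (-2.78) and Adamts10 (-0.49). Adamts8 had 603.3, 114.6, 129.5 and 78.3 in Cenpj mutant intestines, against 868.5, 1573.1, 657.6 and 1769.3 in Ift88 mutant intestines. The groups did not overlap, and the highest Cenpj mutant value is that of Cenpj mutant intestine 1. Without that library the log2 fold change of Adamts8 was -3.40 (limma adjusted p = 0.0061). In that fit, whose share of all genes called is not given here, 6 members were again called, 3 higher and 3 lower. Adamts18 kept its call in all 12 fits that left out a library, Adamts9 in 9, Adamts10 and Adamts12 in 6, Adamts8 in 5 and Adamtsl3 in 4. Adamts12 had 2402.7 to 3983.9 in Cenpj mutant intestines, against 1613.3 to 2077.0 in Ift88 mutant intestines.

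Cell markers differed between the mutants too. In intestine 4 of 6 smooth muscle markers were lower, and they summed to 7734.7 to 35163.1 in Cenpj mutants, against 99015.0 to 188340.1 in Ift88 mutants, while 3 of 6 red blood cell markers were higher (198963.7 to 777073.6 in Cenpj mutants, against 152971.4 to 218236.6 in Ift88 mutants). In lung 3 of 7 lung epithelium markers (33247.1 to 55466.9 in Cenpj mutants, against 51026.8 to 80170.7 in Ift88 mutants) and 2 of 5 heart markers were lower, and 3 of 6 red blood cell markers higher (509819.1 to 1667235.5 in Cenpj mutants, against 221322.1 to 357976.7 in Ift88 mutants). Their part in these results was not tested.

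All Cenpj mutant libraries and no Ift88 mutant library were rich in ribosomal RNA, so the class and the genotype differ together here and can be parted only through the controls. With the class as a term over 24 libraries 1 member was called in the intestine, Adamts18 (2.39, limma adjusted p = 0.00881), and Adamts10 came to -0.06 (adjusted p = 0.924). The share of all genes called with that term is not given here. The other 4 did not pass but stayed at 0.74 for Adamts9, -2.30 for Adamts8, 3.07 for Adamtsl3 and 0.48 for Adamts12 (limma adjusted p 0.268 to 0.495). Of 19 other metalloproteinases tested without that term, 3 were lower in Cenpj than Ift88 mutant lung (Bmp1, Adam8 and Pappa) and none higher. In intestine 1 was lower, Bmp1, and 1 higher, Adam12 (0.73). Bmp1, a procollagen C-proteinase, had a log2 fold change of -0.68 in lung (limma adjusted p = 0.00389) and -0.66 in intestine (limma adjusted p = 0.0114). Of the 24 matrix proteins Dcn was lower in lung, and Col1a1 and Thbs2 in intestine. Values with the class as a term are not given here for these genes.

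In lung 3 of 44 members were lower in Cenpj than Ift88 mutants and none higher, at a background of 1.8% (0.679% higher and 1.12% lower), with a median of -0.26 over the members and 0.00 over all genes tested. They were Adamts10 (log2 fold change -0.65, SE 0.12, limma adjusted p = 0.00523), Adamts2 (-1.37, SE 0.34, adjusted p = 0.0462) and Mmp23 (-0.75, SE 0.19, adjusted p = 0.0496). Adamts2 had 1271.2, 909.8, 432.4 and 832.0 in Cenpj mutant lungs, against 1781.4 to 2542.6 in Ift88 mutant lungs. Mmp23 had 651.9, 1068.6, 1111.6 and 1055.4 in Cenpj mutant lungs, against 1437.5 to 1752.9 in Ift88 mutant lungs. Adamts10 kept its call without any 1 library (adjusted p 0.00166 to 0.0357), while Adamts2 lost it in 8 and Mmp23 in 9 of 12 such fits. With the ribosomal RNA class as a term none of the 3 passed. Adamts10 came to -0.23 (adjusted p = 0.758), Adamts2 to -1.05 (adjusted p = 0.623) and Mmp23 to -0.58 (adjusted p = 0.708). Adamts2 and Mmp23 also missed the threshold with either other pseudocount, with no filter and with edgeR (adjusted p 0.0523 to 0.0969).

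Lung was then compared with intestine within each genotype, in a fit over all 24 libraries. In controls 10 of 47 members were called, 6 higher in lung and 4 lower, at a background of 5.33% of 32098 genes (2.6% higher and 2.73% lower). The median was 0.07 over the members and 0.00 over all genes tested. Mmp23 had 959.1, 1053.1, 989.9 and 1545.3 in control lungs, against 210.5 to 312.9 in control intestines (log2 fold change 2.06, SE 0.22, limma adjusted p = 1.94e-07). Adamts15, a versican-cleaving protease, had 7893.1, 8407.1, 4738.9 and 16850.2 in control lungs, against 1933.9 to 2795.9 in control intestines (1.92, SE 0.26, limma adjusted p = 8.35e-06). Its neighbour Adamts8, 20.1 kb away on the opposite strand, had -0.67 and did not pass. Timp3 (1.04), Adamts20 (1.27), Adamtsl2 (1.61) and Adamts12 (0.54) were also higher in control lung.

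Lower in control lung were Mmp16, Adamts9, Adamts2 and Mmp24. Mmp16, a membrane-type metalloproteinase, had 1577.3, 1557.2, 1427.3 and 1390.6 in control lungs, against 2537.1 to 3186.8 in control intestines (log2 fold change -0.98, SE 0.16, limma adjusted p = 9.94e-05). Adamts9 had 6033.9 to 8118.5 in control lungs, against 9920.8 to 15298.7 in control intestines (-0.79, SE 0.17, limma adjusted p = 0.00368). Adamts2 had -1.26 (limma adjusted p = 0.0166). Mmp24 had 2.0, 0.0, 0.0 and 20.7 in control lungs, against 34.7 to 164.0 in control intestines, too few reads in lung for its fitted fold to give a size. Same-numbered control libraries of the 2 organs deviated together weakly (correlations 0.101 to 0.244), which does not show that they share an embryo. With the replicate number as a block and only the 8 control libraries, 10 members were again called, 5 higher and 5 lower, a count given without its background. Adamtsl2 (adjusted p = 0.0636) and Mmp24 (adjusted p = 0.0752) lost their calls there. Adamts2 (adjusted p = 0.0623) and Mmp24 (adjusted p = 0.0902) missed the threshold with edgeR. Without a block, 3 members lost their calls when 1 library was left out. Adamts2 lost its call without control lung 1 or 3 or control intestine 2 (adjusted p up to 0.0944), Adamtsl2 without control lung 2 or control intestine 2 or 3 (up to 0.079), and Adamts12 without control lung 1 or 3 or control intestine 2 or 4 (up to 0.162).

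The organ difference in mutants is given beside it. The 3 comparisons share no group mean, but all 24 libraries enter the estimate of the spread that they share. Between Cenpj mutant lung and Cenpj mutant intestine 8 of 47 members were called, 3 higher and 5 lower, at a background of 6.51% (2.53% higher and 3.98% lower). Between Ift88 mutant lung and Ift88 mutant intestine 15 were called, 9 higher and 6 lower, at a background of 8.47% (3.1% higher and 5.37% lower). The member medians were 0.00 in Cenpj mutants and 0.12 in Ift88 mutants, with 0.00 over all genes in both. Adamts15, Mmp23 and Mmp16 were called in all 3 genotypes in the same direction. Adamts15 differed by 2.16 in Cenpj mutants, 1.73 in Ift88 mutants and 1.92 in controls, and Mmp16 by -1.11, -0.96 and -0.98. Mmp23 differed by 1.34 in Cenpj mutants, 1.32 in Ift88 mutants and 2.06 in controls. Timp2 (0.41) was the third member higher in Cenpj mutant lung, and Adamts9 (-0.85), Adamts2 (-1.07) and Mmp17 (-0.96), a protease held by a lipid anchor, were lower. Of these, Timp2 kept its call in 9 and Adamts2 in 7 of the 24 fits that left out a library. Both also missed the threshold with edgeR, with no filter and with a pseudocount of 0.1 (adjusted p 0.0522 to 0.0736), and Timp2 with the class term (adjusted p = 0.0518). Adamts19 was lower in lung than intestine in both mutants (-0.89 in Cenpj mutants and -0.87 in Ift88 mutants), with -0.55 in controls (limma adjusted p = 0.068).

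Adamts18 was 0.92 higher on the log2 scale in Ift88 mutant lung than Ift88 mutant intestine (SE 0.24, limma adjusted p = 0.0127), against -0.73 in controls (adjusted p = 0.0826). Adamts9 differed by 0.12 between the organs of Ift88 mutants (adjusted p = 0.823), with -0.85 in Cenpj mutants (adjusted p = 0.00165) and -0.79 in controls. Adamts5 had 1316.4 to 1631.5 in Ift88 mutant lungs, against 322.0 to 457.5 in Ift88 mutant intestines (log2 fold change 1.93, SE 0.26, limma adjusted p = 5.83e-06). Its neighbour Adamts1, 55.1 kb away on the same strand, differed by 0.49 (adjusted p = 0.0304). Also higher in Ift88 mutant lung were Adamtsl3 (3.08), Adamtsl2 (2.06), Mmp2 (0.73) and Adamts12 (0.59), and lower were Adamtsl1 (-1.84), Adamtsl5 (-3.41), Adamts16 (-1.64) and Adamts8 (-1.81). With a library left out, Adamts18 kept its call in 21 of 24 fits, Adamtsl5 in 23, Adamts8 in 18 and Adamts16 in 17, and the libraries that ended these calls were all Ift88 mutants. Adamtsl5 had 2.0 in Ift88 mutant lung 1, and without that library it came to -2.22 (limma adjusted p = 0.0802). Adamts8 also missed the threshold with no filter (limma adjusted p = 0.0595).

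Other matrix genes differed between control organs too. Of the 24 matrix proteins 6 were higher in control lung and 1 lower, among them biglycan Bgn (log2 fold change 2.34), thrombospondin Thbs1 (1.78), Col1a2 (1.23) and, as the only one lower, decorin Dcn (-1.04). Of the 24 other regulators 6 were higher and 4 lower, among them the protease trap A2m (4.02), Serpine2 (1.36), which blocks plasminogen activators, and Pcolce (1.35), which enhances procollagen trimming, all higher, and Spock1 (-2.87) lower. Of 19 other metalloproteinases 3 were higher and 2 lower.

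**Figure D5:**
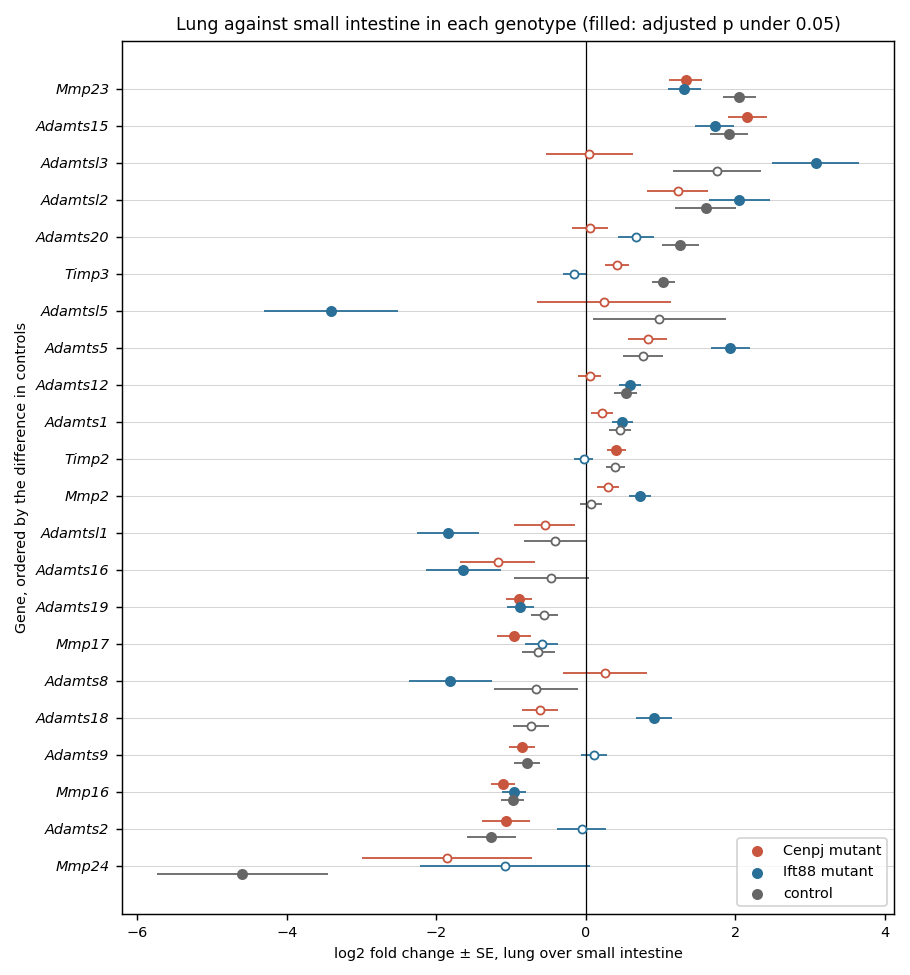
Log2 fold change of lung over small intestine with SE in Cenpj mutants, Ift88 mutants and controls, for the 22 genes called in at least 1 genotype; filled points have an adjusted p under 0.05. Mmp23 and Adamts15 lie to the right and Mmp16 to the left in all 3 genotypes, and Adamts18 lies to the right in Ift88 mutants alone, at 0.92.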

How the data were processed

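RNA was measured in 24 libraries, 6 groups of 4, grouped by organ and genotype as the labels give them. Reads were aligned with STAR 2.5.2b to GRCm38 (mm10) and normalized with DESeq2 1.16.1, per the submitters' processing notes; which tool counted them, and with which strand setting, is not given in the sources used here. The deposited values are read counts divided by 1 size factor per library, a linear signal rounded by the authors to 1 decimal, as the column headers and the values show. The authors also deposited a linear fold (ratio) and p-values with their adjusted values for most comparisons; these were read but no result here rests on them.

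Whole reads were recovered from the steps of that signal (tolerance 0.051 of a read, for values up to 500 reads) and used for library totals and for the count tests. In 20 libraries the step was clear. In the other 4 it was too near 1 to be told from whole numbers. The unit was therefore not raw counts, and the main test was limma 3.58.1 (R 4.3.3) fitted with a trend to log2(value + 1); genes entered it at a mean of 1 or more over the libraries of the fit. Lung fits used 12 libraries, intestine fits 12 and organ fits 24. P-values were adjusted by Benjamini-Hochberg over all genes tested at 0.05. For low genes a fold change on this scale can lie above or below the ratio of the counts and is no safe size. Mmp24 between control organs came to -4.596 with limma on only these groups and to -3.785 with edgeR. SE is that of the fit. The fits were tested on simulated data. The alternatives were edgeR 4.0.16 and DESeq2 1.42.0 on the recovered reads, pseudocounts of 0.1 and 10, no filter, a mean of 100 or more, only the groups compared, the replicate number as a block, the ribosomal RNA class (over 2000 reads per M reads) as a term, and each library left out. The class term was fitted over 24 libraries, and the class differs within a group only through control lung 3 and control intestine 2.

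Genes named are the members called in a comparison (at most 10, or the 8 largest differences each way between organs), the 3 with the smallest p where fewer than 3 passed, Timp1 to Timp4, Mmp2, Mmp14, Adamts1 and Adamts9, and up to 4 of each other list; names outside this rule are marked as chosen after their values were seen, or are the highest per kb, the chromosome 9 cluster, Mmp9 and Dcn. The members and the other gene lists were chosen with earlier results of these data known. Same-numbered control lungs and control intestines deviated together weakly over genes with a mean of 100 or more (correlations 0.244, 0.101, 0.108 and 0.182). The block for the control organs was chosen from these values and not from the labels. They cannot show that such libraries share an embryo. Cenpj mutant with control intestine, which differ in genotype, had 0.252, 0.146, 0.08 and 0.257. No other pair of groups had all 4 correlations over 0.1. Exon lengths and promoter windows came from the GENCODE M21 annotation and RefSeq.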

Additional observations from a re-analysis of the deposited data

Results flagged for a closer look

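In 13 of 168 groups of 4 libraries, taken over the named members, 1 library lay far from the other 3, with a gap over 0.829 of the group's range. Chance gives about 1 in 20 groups, and no explanation was tested. Adamts10 was high in Cenpj mutant intestine 4 (15199.0), Timp2 (12399.6) and Adamts8 (603.3) in Cenpj mutant intestine 1, which holds both Xist and Ddx3y, and Mmp16 in Ift88 mutant lung 3 (1624.0). Adamtsl1 was low in Ift88 mutant intestine 2 (2357.7) and Mmp23 low in Cenpj mutant lung 1 (651.9). Mmp23 (1545.3) and Mmp24 (20.7) were high in control lung 4, and Adamts8 in control intestine 4 (1254.8). Timp4, at 0 in 12 of the 24 libraries, stood out in Cenpj mutant lung 1 (105.6), Ift88 mutant intestine 2 (39.3), control lung 3 (57.6) and control intestine 4 (29.2).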

How the results depend on the processing

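The numbers of members called by limma are compared here with those under other settings. The share of all genes called changes between settings too, as given above for edgeR and DESeq2 in some comparisons, and is not repeated here. These counts therefore describe the settings and are no result particular to the members. In Cenpj mutant lung against control lung, 0 were called, and 3 were with the replicate number as a block, 1 with edgeR, 3 with DESeq2, 1 with the ribosomal RNA class as a term and 0 to 1 with a library left out. In Ift88 mutant lung against control lung, 1 was called, and 5 were with the replicate block, 3 with only these groups, 6 with DESeq2, 0 with the class term and 0 to 6 with a library left out. In Ift88 mutant against control intestine, 3 were called, and 7 were with the replicate block, 7 with DESeq2 and 1 to 10 with a library left out. In Cenpj against Ift88 mutant lung, 3 were called, and 1 was with a pseudocount of 0.1, of 10, with no filter and with edgeR, 5 with the replicate block, 6 with DESeq2, 0 with the class term and 1 to 4 with a library left out. In Cenpj against Ift88 mutant intestine, 6 were called, and 2 were with no filter, 10 with the replicate block, 11 with only these groups, 10 with DESeq2, 1 with the class term and 1 to 8 with a library left out. In control lung against control intestine, 10 were called, and 6 were with only these groups, 16 with DESeq2 and 9 to 12 with a library left out. For the Ift88 effect between organs, 0 were called, and 1 was with a pseudocount of 10, 1 with the replicate block, 3 with DESeq2 and 0 to 2 with a library left out. Leaving out a library gave 0 in Cenpj mutant intestine and for the Cenpj effect between organs, 6 to 10 between Cenpj mutant organs and 11 to 17 between Ift88 mutant organs. The cause of these changes was not tested. All 59 named differences kept their sign in the 1698 values of these alternatives. They were picked by small p or large difference, and the alternatives refit the same libraries. A kept sign was therefore likely beforehand and is no separate support. The replicate block turned 6 of the 59 to called and none to not called. Outside the control organs no pair of groups had all 4 correlations over 0.1. Cenpj mutant with control intestine came nearest (0.252, 0.146, 0.08 and 0.257). Those 2 groups differ in genotype, so correlations of this size cannot show that libraries share an embryo. The block with only the 8 control libraries was added after seeing the data. Of the calls among the 59, the class term and no filter each ended 10, edgeR 7, only the groups compared and a pseudocount of 0.1 each 4, a pseudocount of 10 ended 2, a mean of 100 or more 1 and DESeq2 none. With 4 libraries a group, differences near the threshold turn on single libraries, and members under about 100 normalized counts are limited by reads.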

Other observations

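Mmp24, a membrane-type metalloproteinase, was low throughout but unevenly so. It had 51.2, 34.1, 0.0 and 29.0 normalized counts in Cenpj mutant lungs and 42.5, 47.4, 13.5 and 134.0 in Ift88 mutant lungs, against 2.0, 0.0, 0.0 and 20.7 in control lungs. Adamtsl5 had 2.0, 75.3, 146.7 and 46.0 in Ift88 mutant lungs, against 396.7, 279.7, 422.6 and 424.4 in Ift88 mutant intestines. Mmp8, the only member of the chromosome 9 cluster with a mean over 20, had 63.6, 19.2, 62.8 and 22.3 in Ift88 mutant intestines, 0.0, 1.1, 0.0 and 3.9 in Cenpj mutant intestines, and 0.0, 0.0, 0.0 and 30.2 in control intestines. In lung it had 54.4, 65.3, 32.5 and 11.4 in Cenpj mutants, 4.9, 0.0, 0.0 and 35.0 in Ift88 mutants, and 0.0, 0.0, 55.3 and 19.7 in controls.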
